A study of Mus musculus with 6 samples.

Results

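The 81 genes described here carry the names of proteins of the cytosolic ribosome. They were taken from the 41128 listed features by their symbols, as every Rps or Rpl gene named by number, with or without a letter a, x or l, together with Rpsa and the stalk genes Rplp0, Rplp1 and Rplp2. Symbols that mark pseudogenes (-ps) were left out, but Rps4l, annotated as a transcribed processed pseudogene, was kept by its symbol. Of the 81, 32 are named for the small (40S) subunit and 49 for the large (60S) subunit, and the name check against GENCODE M21 found all 81. RNA sequencing of pooled lenses at E15.5 was compared between 3 cKO replicates of 30 lenses each (genotype beta1 Flox/Flox MLR10 Cre+, strain background given as mix) and 3 WT replicates of 75 lenses each (C57Bl/6). The Cre of MLR10 mice is driven by a modified αA-crystallin promoter and acts in lens cells, and no Cre is named for the WT mice. The labels mark the WT records as duplicates of other records, and whether both groups were sequenced together is not stated. Genotype, strain background, Cre, pool size and depth differ together between the groups, so their parts in any difference below cannot be told apart.

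A cytosolic ribosome holds one copy of nearly every ribosomal protein beside its ribosomal RNA, and each protein is made from its own gene. Transcripts of these genes mostly begin with a C in a run of pyrimidines, the 5′ terminal oligopyrimidine (TOP) motif, through which the mTOR pathway controls their translation. Processed pseudogenes, which are reverse-transcribed copies of the mRNAs, are more numerous for this family than for most in mammalian genomes. In the lens, fibre cells stop dividing, load their cytoplasm with crystallins and later lose their organelles, ribosomes included.

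The TOP motif is shown first because it was more frequent at the starts of members than at those of all genes. A start with a C followed by 4 bases that are each C or T, read on the transcript's strand, stood at the RefSeq start of 13 of the 60 members that matched the RefSeq promoter table (21.7%), against 3.01% of the 27025 genes in that table. Within 10 bases of the start, such a run was found in 63.3% of the 60 members and 34.4% of all genes in the table. The 5 starts printed here, from RefSeq GRCm38.p6, each hold 5 bases before the start and the pyrimidine run in capitals. They belong to a gene that fell, 2 that rose, 1 that did not pass the test and 1 listed at 0.
Rpl35a, chr16:33056477-33056501, plus strand: ccttcCTCTTTCCgccatcttggcg
Rpl14, chr9:120571512-120571536, plus strand: tctctCTTCTCgctgagcgccgcca
Rpl38, chr11:114668575-114668599, plus strand: tcgttCTTTCCCCgttctcttcggt
Rps6, chr4:86857348-86857372, minus strand: cgggcCTCTTTTTCgtgacgcctcc
Rps27, chr3:90213629-90213653, minus strand: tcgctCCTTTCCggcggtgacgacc
Genes with this start therefore appear among those that rose, those that fell and those that did not pass the test.

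Members of this family share sequence with other genes, and a read of 50 bases that lies in a copied stretch fits more than 1 gene. The handling of such reads is not stated in the sources used here, and their part in the values was not tested. Every stretch of 50 bases (a window) in the main GENCODE M21 transcript of a member was compared with the transcripts of all other genes, and 44 of the 81 members had under 50% of their windows to themselves. Rpl39l and Rpl3l were among those that shared no window. The pairs printed next are coding windows of members that carry the results, above a copy, with capitals at the bases that differ (GRCm38, 5′ to 3′). Each was chosen as the coding window that differs most from its closest copy, leaving out windows with no close copy. They are therefore not typical windows. Rplp1 was compared with Gm10073 only. The windows of Rpl35a and Rps27 span an intron, so their coordinates cover more than 50 bases.
Rpl35a, chr16:33057509-33058694, plus strand: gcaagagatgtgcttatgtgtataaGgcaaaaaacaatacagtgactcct
Rpl35a-ps3, chr17:29137125-29137174, minus strand: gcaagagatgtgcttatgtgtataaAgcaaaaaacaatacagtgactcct
Rpl29, chr9:106431241-106431290, plus strand: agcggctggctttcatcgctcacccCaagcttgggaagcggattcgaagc
Gm6344, chr13:55086051-55086100, plus strand: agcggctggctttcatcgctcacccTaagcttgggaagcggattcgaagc
Rpl34, chr3:130729060-130729109, minus strand: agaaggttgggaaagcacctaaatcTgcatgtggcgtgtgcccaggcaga
Rpl34-ps1, chr6:71124716-71124765, plus strand: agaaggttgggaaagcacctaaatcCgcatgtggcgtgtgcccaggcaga
Rplp1, chr9:61913394-61913443, minus strand: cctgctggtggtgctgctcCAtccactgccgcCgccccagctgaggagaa
Gm10073, chr8:106573076-106573125, minus strand: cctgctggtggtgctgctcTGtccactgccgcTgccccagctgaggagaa
Rps27, chr3:90213258-90213615, minus strand: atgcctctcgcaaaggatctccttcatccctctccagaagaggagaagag
Rps27rt, chr9:114982658-114982707, minus strand: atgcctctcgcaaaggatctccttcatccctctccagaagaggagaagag
The first 3 pairs differ at 1 base, Rplp1 and Gm10073 at 3 bases, and Rps27 and Rps27rt at 0 bases.

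Levels within the family, given as RPKM (CPM per kilobase of the gene's listed length), differed widely between members. Rpl4, a structural protein of the large subunit, averaged 930.8 ± 34.4 RPKM in cKO lenses and 864 ± 57.9 RPKM in WT lenses (SD, n = 3 each, as for all such values). Rpl8, which lies near the peptidyl transferase centre, averaged 667 ± 24.1 RPKM in cKO and 946 ± 51.8 RPKM in WT. At the other end, Rps6, the phosphorylated target of S6 kinase, averaged 0.89 ± 0.17 RPKM in cKO and 0.98 ± 0.24 RPKM in WT and was the lowest member tested by CPM. The proteins are used in nearly equal numbers in the ribosome, whereas the listed values of their genes were not nearly equal. RPKM also depends on the listed length, which can far exceed the main transcript. It was 4483 bases for Rps3, with a main transcript of 1908 bases, and 862 bases for Rpl8, with 851 bases. In WT, Rps3 averaged 811 CPM and 180.9 RPKM, whereas Rpl8 averaged 815 CPM and 946 RPKM.

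Members with many unique windows had higher listed RPKM than members with few. The part of the listed length in this was not tested. Under 20% unique windows the median over 18 members was 6.18 RPKM in cKO and 7.24 RPKM in WT. From 20% to 50% it was 34.8 RPKM in cKO and 41.5 RPKM in WT over 26 members. At 50% and over it was 154.8 RPKM in cKO and 113.6 RPKM in WT over 33 members. Across these 77 members Spearman's rho between WT RPKM and the percent of unique windows was 0.66 and Pearson's r of log2(RPKM + 1) was 0.65, as a description over genes that share all libraries. Both leave out Rpl3l, Rpl10l, Rpl39l and the pseudogene Rps4l, which were at or near 0 despite many unique windows. With them rho was 0.45 over 81 members. The size of the fold change followed the unique share less closely (rho -0.20 over 73 tested members).

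**Figure D1:**
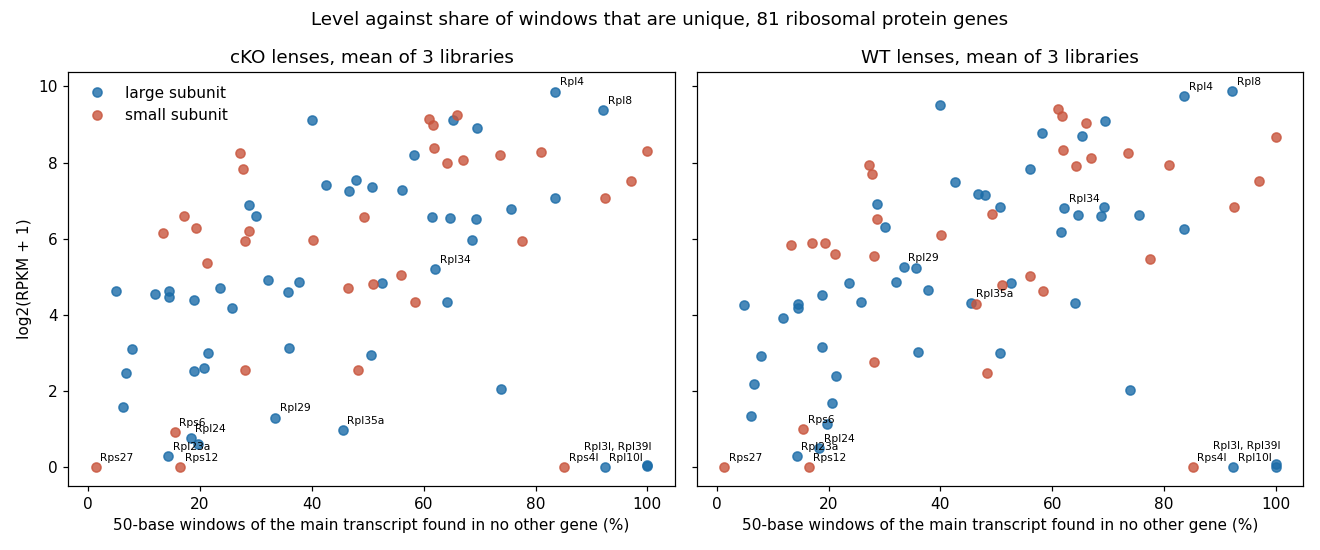
Level as log2(RPKM + 1), mean of 3 libraries, against the percent of 50-base windows of the main transcript found in no other gene, for 81 members, with cKO lenses at left and WT lenses at right. Rps27 and Rps12 lie at 0 with few unique windows, and Rpl29 and Rpl35a lie lower in the cKO panel than in the WT panel.

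Counted together, the family took nearly the same share of the reads in both groups. The summed CPM (reads scaled so that each library sums to 1000000) of the 81 members was 14112.8, 13778.1 and 13270.1 in cKO replicates 1, 2 and 3, against 14973.6, 13719.4 and 13491.5 in WT replicates 1, 2 and 3. The groups overlapped, and the log2 ratio of their means was -0.04. The small subunit summed to 6482.3 ± 251.3 CPM in cKO and 6428.9 ± 384.5 CPM in WT, with overlap. The large subunit summed to 7238 ± 181.6 CPM in cKO and 7632.6 ± 417.8 CPM in WT. Its groups were separated by less than 1 CPM, with 7372.1 CPM in the highest cKO library and 7372.5 CPM in the lowest WT library.

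**Figure D2:**
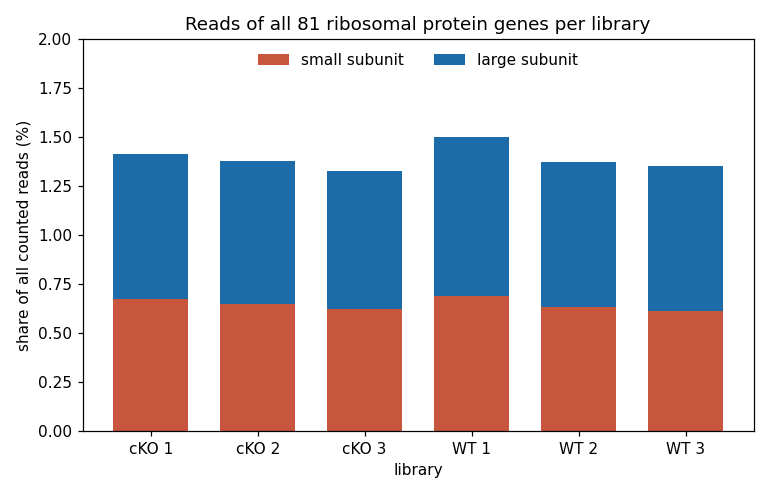
Percent of all counted reads that fell on the 81 members in each library, small subunit below and large subunit above, with the 3 cKO libraries left of the 3 WT libraries. The whole bar lies between 1.33% and 1.50% in every library.

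Within that nearly level sum, single members differed in both directions. Of the 73 members tested (at least 1 CPM in at least 3 libraries), 21 were higher and 17 lower in cKO at an adjusted p under 0.05 by limma, so 52.1% were called. Over all 11941 features tested 36.9% were called, 20.9% as higher and 15.9% as lower, against 28.8% and 23.3% of the members. The median log2 fold change of the members was 0.02, and that of all features was 0.03. Their spread, as the scaled median absolute deviation (MAD, the median distance from the median, scaled to match an SD), was 0.42 over the members and 0.31 over all features. The groups did not overlap for 42 members (57.5%), against 48.1% of all features. When each library was centred on the family's own median, 19 of the 73 members tested were higher and 16 lower. Under that centring 27.7% of all features were called. Of the 38 members called without it, 35 still passed.

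The subunits differed in how far their members spread. Of the 29 small-subunit members tested, 9 were higher and 5 lower, and 28 lay within 0.5 of 0 on the log2 scale. Of the 44 large-subunit members tested, 12 were higher and 12 lower, and 29 lay within 0.5 of 0. The difference between the subunits was not tested. Corrected for GC content and length, 17 members were higher and 21 lower, and over all features 1887 were higher and 2296 lower, against 2499 and 1904 uncorrected.

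**Figure D3:**
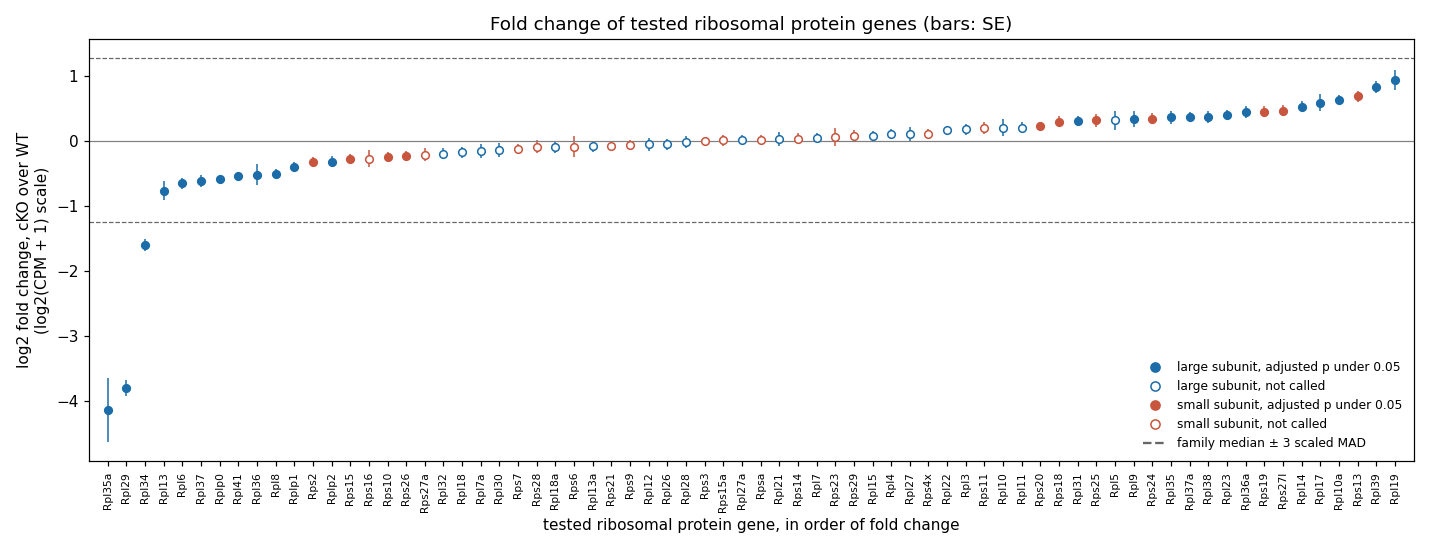
Log2 fold change of cKO over WT on the log2(CPM + 1) scale, with SE, for 70 of the 73 tested members in order, by subunit and by whether they passed the test. The dashed lines at -1.24 and 1.28 are the family median plus or minus 3 scaled MAD, and Rpl35a, Rpl29 and Rpl34 lie below the lower line.

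A group of 3 large-subunit genes left the trend of the family, which is counted here as a called fold change more than 3 scaled MAD from the family median: Rpl35a, Rpl29 and Rpl34. No member lay above the range. The nearest member inside it on the low side was Rpl13 at -0.76 and on the high side Rpl19 at 0.94, and the nearest outside was Rpl34 at -1.60. Together these 3 genes summed to 46.7 ± 4.44 CPM in cKO and 225.6 ± 24.7 CPM in WT. No other gene is annotated as overlapping any of them.

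Rpl35a (ENSMUSG00000060636; GRCm38 chromosome 16, 33056453 to 33060189, plus strand, protein coding) encodes eL33, and in people its mutations are one cause of Diamond-Blackfan anaemia, a red cell aplasia. It had 6.54, 2.57 and 1.00 CPM in cKO replicates 1, 2 and 3, against 72.2, 69.7 and 56.2 CPM in WT replicates 1, 2 and 3. The groups did not overlap, and the cKO libraries differed widely among themselves. The fitted log2 fold change was -4.14 (SE 0.50, limma adjusted p = 0.00243), and mean CPM was 19.6-fold higher in WT. The highest cKO library held 6.56 times the CPM of the lowest, whereas the median member's ratio was 1.13 and Rps6 was second. In reads, the cKO values rest on 131, 52 and 28 and the WT values on 833, 795 and 563. Without cKO replicate 1 that ratio was 37.0, and without each other library in turn it was 14.5 to 21.1, with the gene below the family range each time.

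Rpl29 (ENSMUSG00000048758; chromosome 9, 106429454 to 106431568, plus strand, protein coding) encodes eL29, a basic protein also described as a heparin- and heparan sulfate-binding protein. It had 1.35, 1.19 and 0.96 CPM in cKO and 32.4, 29.2 and 26.6 CPM in WT, in replicate order. Every cKO library lay far under every WT library. The highest cKO library held 1.40 times the CPM of the lowest. The log2 fold change was -3.81 (SE 0.12, limma adjusted p = 1.16e-10), and mean CPM was 25.2-fold higher in WT. The cKO values rest on 27, 24 and 27 reads, and on recovered reads edgeR gave a log2 fold change of -4.71.

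Rpl34 (ENSMUSG00000062006; chromosome 3, 130726831 to 130730398, minus strand, protein coding) encodes eL34. It had 42.1, 44.8 and 39.7 CPM in cKO and 146.2, 125.7 and 118.6 CPM in WT. The groups did not overlap, and the gene kept 0.32 times its WT level in cKO. Its log2 fold change was -1.60 (SE 0.09, limma adjusted p = 4.03e-08).

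Reads on the listed copies of these 3 genes were counted too. A copy is here a listed gene whose transcripts hold at least 10% of the windows of the member's main transcript. The 13 copies of Rpl35a and the 5 copies of Rpl34 were at 0 in all libraries. The 22 copies of Rpl29 summed to 14.9 CPM in cKO and 10.5 CPM in WT, while Rpl29 itself differed by -28.2 CPM. Nearly all of that came from Uimc1, which encodes a ubiquitin-binding partner of BRCA1 and whose transcripts hold 49.2% of the windows of Rpl29. Uimc1 averaged 14.8 ± 0.34 CPM in cKO and 10.3 ± 2.14 CPM in WT (log2 fold change 0.50, limma adjusted p = 0.00938). Its values count the whole gene, and reads within the windows shared with Rpl29 were not counted apart. Copies that the files do not list were not analysed here.

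The stalk of the large subunit, which recruits the GTPase translation factors, is made of Rplp0 and dimers of Rplp1 and Rplp2, and all 3 genes fell. Rplp0 had 490.5, 500.3 and 467 CPM in cKO against 732, 712 and 746 CPM in WT (log2 fold change -0.59, SE 0.07, limma adjusted p = 2.83e-05). Rplp1 had 268, 288 and 269 CPM in cKO against 377, 339 and 367 CPM in WT (-0.39, SE 0.07, adjusted p = 0.000991). Rplp2 had 200.1, 184 and 177 CPM in cKO against 234, 213 and 253 CPM in WT (-0.32, SE 0.08, adjusted p = 0.0082). The groups did not overlap for any of the 3, and the Rplp2 call was lost without cKO replicate 3 (adjusted p = 0.0501).

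One copy of Rplp1 had a larger fold change than Rplp1, though a smaller difference in CPM (37.7 against -86.05, cKO minus WT). Gm10073, whose transcript holds 60% of the windows of Rplp1 and which the files describe as a predicted pseudogene, had 37.0, 35.8 and 42.0 CPM in cKO, against 0.52, 0.35 and 0.90 CPM in WT. Its log2 fold change was 4.64, and it was named after its values were seen. It reached 1 CPM in the cKO libraries only. It thus entered the test through the group where it is high, and its p is not given. Added to Rplp1 library by library, the pair had 305.1, 323.4 and 310.9 CPM in cKO and 377.5, 339.3 and 367.8 CPM in WT. The sums still did not overlap. How reads were divided between the pair in the 2 strain backgrounds was not tested.

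**Figure D4:**
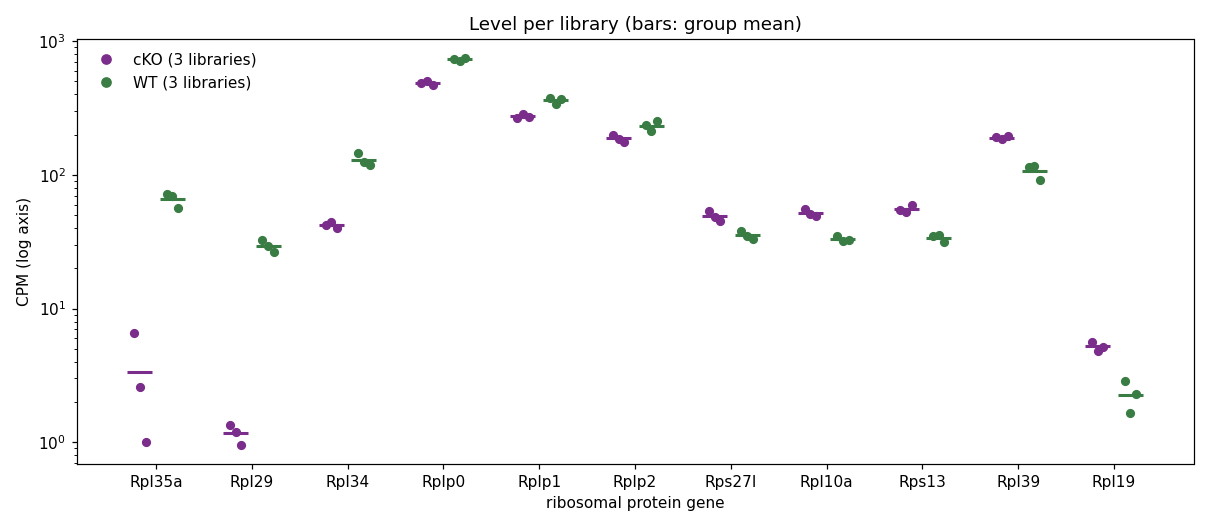
CPM per library on a log axis for 11 members, with the 3 cKO libraries left of the 3 WT libraries and a bar at each mean. Rpl35a spreads over its 3 cKO libraries, Rpl29 and Rpl34 spread less, the stalk genes lie lower in cKO, and the 5 genes at right lie higher in cKO.

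Other large-subunit genes that fell lay within the family range. Rpl8 had 588, 585 and 551 CPM in cKO and 856, 768 and 822 CPM in WT, with no overlap, and shares few windows with other genes (92.1% unique). Rpl6, Rpl37 and Rpl41, structural proteins of the large subunit, had log2 fold changes of -0.65, -0.61 and -0.54. Rpl13 (-0.76) and Rpl36 (-0.52) also fell, at levels of 1.24 ± 0.09 and 1.93 ± 0.40 CPM in cKO and 2.81 ± 0.37 and 3.20 ± 0.70 CPM in WT, so they rest on few reads. The call of Rpl36 was lost without cKO replicate 2 or 3 or WT replicate 1.

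In the small subunit the falls were smaller. Rps2, a protein of the mRNA entry site, had 125.6, 149.7 and 123.5 CPM in cKO and 169.9, 166.8 and 160.1 CPM in WT (log2 fold change -0.32, SE 0.08, limma adjusted p = 0.00871). Its groups did not overlap. Rps15 had a log2 fold change of -0.27, and both calls were lost without cKO replicate 3. Rps10 (-0.24) and Rps26 (-0.23), a pair linked to Diamond-Blackfan anaemia in people, passed as well. Both calls were lost without any one of cKO replicates 1 and 2 and WT replicates 1 and 2, and that of Rps26 also without cKO replicate 3.

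Among the genes that rose, Rpl19 had the highest fold change at a low level. It had 5.59, 4.85 and 5.20 CPM in cKO and 2.86, 1.67 and 2.29 CPM in WT (log2 fold change 0.94, SE 0.15, limma adjusted p = 0.00047). Rpl39, the small protein that lines the exit tunnel of the nascent chain, had 191, 184 and 195 CPM in cKO and 114, 116 and 91.2 CPM in WT (0.83, SE 0.09, adjusted p = 1.9e-05). The groups did not overlap for either gene, and 83.5% of the windows of Rpl39 were unique. Rpl10a, the protein of the L1 stalk, had 55.6, 51.2 and 49.6 CPM in cKO and 34.9, 32.2 and 32.3 CPM in WT (0.64, adjusted p = 7.04e-05). Its unique share was 11.9%. Rpl14 (0.53), Rpl36a (0.45), Rpl23 (0.41), Rpl38 (0.38), Rpl37a (0.37), Rpl35 (0.37), Rpl9 (0.34) and Rpl31 (0.32) rose by less, as did Rpl17 (0.59) at 5.41 ± 0.07 CPM in cKO and 3.26 ± 0.52 CPM in WT. Rpl38 is the gene lost in the Tail-short mouse, which has patterning defects of the axial skeleton. The Rpl9 call failed in 13 of 18 alternatives and that of Rpl35 without cKO replicate 1 or WT replicate 2.

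Of the small-subunit genes that rose, Rps13 had 54.6, 52.8 and 59.3 CPM in cKO and 35.0, 35.5 and 31.4 CPM in WT (log2 fold change 0.69, SE 0.08, limma adjusted p = 4.45e-05). Rps19, the gene most often mutated in Diamond-Blackfan anaemia in people, had 118, 124 and 111 CPM in cKO and 95.6, 80.0 and 82.0 CPM in WT (0.46, SE 0.08, adjusted p = 0.00109). Neither gene's groups overlapped. Rps24 (0.35), Rps25 (0.32), Rps18 (0.30) and Rps20 (0.23) rose by less. The Rps25 call was lost with RLE or TMM scaling, and without cKO replicate 1 or WT replicate 2 or 3. It was also lost with no filter on low values, by edgeR and by limma-voom, and with the GC and length correction, where its value was 0.09. The Rps20 call was lost without WT replicate 2, when centred on the family, and with the GC and length correction, where its value was 0.05. The Rps24 call was lost with that correction too, at 0.10.

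The 35 members that did not pass had log2 fold changes from -0.27 (Rps16) to 0.32 (Rpl5) and include several with roles outside protein synthesis. Rpl5 and Rpl11, which bind 5S rRNA and restrain Mdm2, had values of 0.32 (SE 0.14, limma adjusted p = 0.0959) and 0.21 (SE 0.08, adjusted p = 0.0565). Rpsa, also described as a laminin receptor, averaged 59.5 ± 0.84 CPM in cKO and 58.7 ± 2.43 CPM in WT. Rps3, which also acts in DNA repair, averaged 810.4 ± 47.2 CPM in cKO and 811 ± 35.6 CPM in WT. Rps6 was at 1.50, 1.63 and 1.10 CPM in cKO and 1.65, 1.14 and 1.90 CPM in WT, and Rps14 had a log2 fold change of 0.04. Rpl4 and Rps9, among the 5 members with the highest CPM, had values of 0.11 and -0.06, and Rps23, among the 5 lowest tested, had 0.07. Of these 9 genes only Rpl11 had groups that did not overlap. Of the 35, 12 passed under at least 1 alternative.

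Paralogs made at other sites or stages were set beside their main forms. Rps27l, a p53-induced paralog of Rps27, had 53.6, 48.8 and 45.4 CPM in cKO and 38.2, 34.6 and 32.9 CPM in WT (log2 fold change 0.47, SE 0.09, limma adjusted p = 0.0013). Its groups did not overlap, but with the GC and length correction the value was 0.08 and the call was lost. Rps27 itself was listed at 0 in all 6 libraries, with 1.35% of its windows unique, and so was Rps27rt, with which it shares nearly all windows. Rpl3l, known from muscle, had 0 to 4 reads a library, and Rpl39l, known from testis, had 1 read in 1 cKO library and 0 elsewhere. Rpl10l, known from testis, was listed at 0. Their main forms Rpl3 (0.18, adjusted p = 0.0845) and Rpl10 (0.21, adjusted p = 0.205) did not pass.

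The other 8 members were not tested, because they did not reach 1 CPM in 3 libraries. Rps12, Rps27, Rps4l and Rpl10l were listed at 0 in every library. A count of 0 allows up to 0.107 to 0.150 CPM in a cKO library and 0.260 to 0.299 CPM in a WT library, by counting error alone and for reads that were assigned. Since Rps12 and Rps27 belong to every ribosome and had 16.5% and 1.35% unique windows, their values say only that they were listed at 0. Rpl24 had 20, 11 and 16 reads in cKO and 8, 1 and 5 in WT, and Rpl23a had 6, 2 and 4 reads in cKO and 1, 2 and 3 in WT. The 246 listed pseudogenes of the family with -ps names summed to 1.54 ± 0.45 CPM in cKO and 0.79 ± 0.10 CPM in WT, and 228 of them were at 0 in all libraries.

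Genes of the cytosolic ribosome that the naming rule does not take were also called in both directions. Of 7 tested, 4 were higher (57.1%) and 1 lower (14.3%), against 20.9% and 15.9% of all features. Their median log2 fold change was 0.44. The 4 that rose each share at least 10% of their 32-base words with transcripts of other genes. Rpl22l1, the paralog that Rpl22 represses in mouse, had 39.1, 37.8 and 40.0 CPM in cKO and 15.6, 17.0 and 12.7 CPM in WT (1.32, SE 0.10, limma adjusted p = 1.09e-06), with no overlap. Rpl22 itself averaged 318 ± 13.9 CPM in cKO and 282.4 ± 10.5 CPM in WT and did not pass (0.17, adjusted p = 0.0688). Fau, which encodes ribosomal protein S30 fused to a ubiquitin-like protein, had 36.3, 39.8 and 42.5 CPM in cKO and 18.7, 18.9 and 15.2 CPM in WT (1.13, SE 0.10, adjusted p = 3.55e-06). Rpl7l1 (0.71) and Rps3a1 (0.44) rose, and Gnb2l1, listed under the older symbol of the scaffold protein Rack1, fell by 0.31. Rpl36al did not pass (0.18, adjusted p = 0.136).

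Lists around the ribosome had genes called in both directions and medians near 0. Their called shares are to be read against the 20.9% higher and 15.9% lower over all features, and no list was tested against these. For ribosome biogenesis 11 of 45 tested genes were higher (24.4%) and 7 lower (15.6%), close to the shares over all features (median 0.09). The snoRNP core protein Nop58 (0.45), the nucleolar GTPases Gnl3 (0.47) and Gtpbp4 (0.40) rose and the 40S processing factor Bysl (-0.41) fell. Leaving out cKO replicate 2 or WT replicate 2 brought the higher count to 5, and leaving out cKO replicate 3 brought it to 7. It was also 5 when centred on the family, 6 with the GC and length correction or no filter, and 7 with DESeq2. For RNA polymerase I and its factors 3 of 20 were higher and 3 lower (15% each, median -0.01). Taf1d (0.57), of the promoter factor SL1, and Polr2k (0.59), a subunit shared by RNA polymerases, rose, and Polr1b (-0.50), the second largest subunit, and Taf1c (-0.45), also of SL1, fell, but with the GC and length correction 0 were higher. For dedicated chaperones of ribosomal proteins 2 of 7 were higher and 2 lower (median 0.16). Grwd1 (-0.38) and Aamp (-0.27) fell and Pdcd2 (0.51) and Bccip (0.23) rose. Of the rises, 0 passed when cKO replicate 1 or 2 or WT replicate 2 or 3 was left out, and 1 when cKO replicate 3 was. With RLE, TMM or family centring 1 passed. The same held for no filter, a mean of at least 5 CPM, the GC and length correction, edgeR, thinning, and removal of features with shared words. With DESeq2 or limma-voom 0 passed.

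Of the translation factors and other TOP mRNAs, 5 of 20 were higher and 5 lower (25% each, median -0.03), against 20.9% and 15.9% of all features. Eef2, the elongation factor of translocation, averaged 2063.7 ± 242.9 CPM in cKO and 2949.8 ± 294.6 CPM in WT (log2 fold change -0.52, limma adjusted p = 0.00125). The eIF3 subunit gene Eif3k (-0.48) fell, whereas Eif3e (0.42) and the snoRNA host gene Gas5 (0.43) rose. The lower count was 3 without cKO replicate 2 or 3 or WT replicate 2. With the GC and length correction the split was 2 higher and 9 lower. Mitochondrial ribosomal proteins, a separate family, had 13 of 76 higher (17.1%) and 8 lower (10.5%), below the shares over all features (median 0.07), led by Mrps26 (0.71), Mrpl50 (0.58), Mrpl33 (0.55) and Mrpl52 (0.55). Their higher count was 7 without cKO replicate 3 and 8 without WT replicate 3, and their lower count was 4 without cKO replicate 3 and 5 without WT replicate 1 or 2. With the GC and length correction 14 were lower, and the higher count was 8 when centred on the family and 7 with DESeq2. Without features that share at least 10% of their windows, 7 were higher and 3 lower.

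Upstream regulators showed a fall of Tsc2, the GTPase-activating protein that restrains Rheb and so mTORC1. Tsc2 had 327, 335 and 329.8 CPM in cKO and 696, 797 and 775 CPM in WT (log2 fold change -1.19, SE 0.07, limma adjusted p = 9.22e-08). The groups did not overlap. Rheb rose (0.50), and Mtor (-0.33) and Myc (-0.72), a transcription factor that raises ribosome synthesis, fell. Of the 16 genes listed for mTOR and Myc, 3 were higher (18.8%) and 4 lower (25%), against 20.9% and 15.9% of all features (median -0.01). The higher count was 1 with the GC and length correction or when centred on the family.

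**Figure D5:**
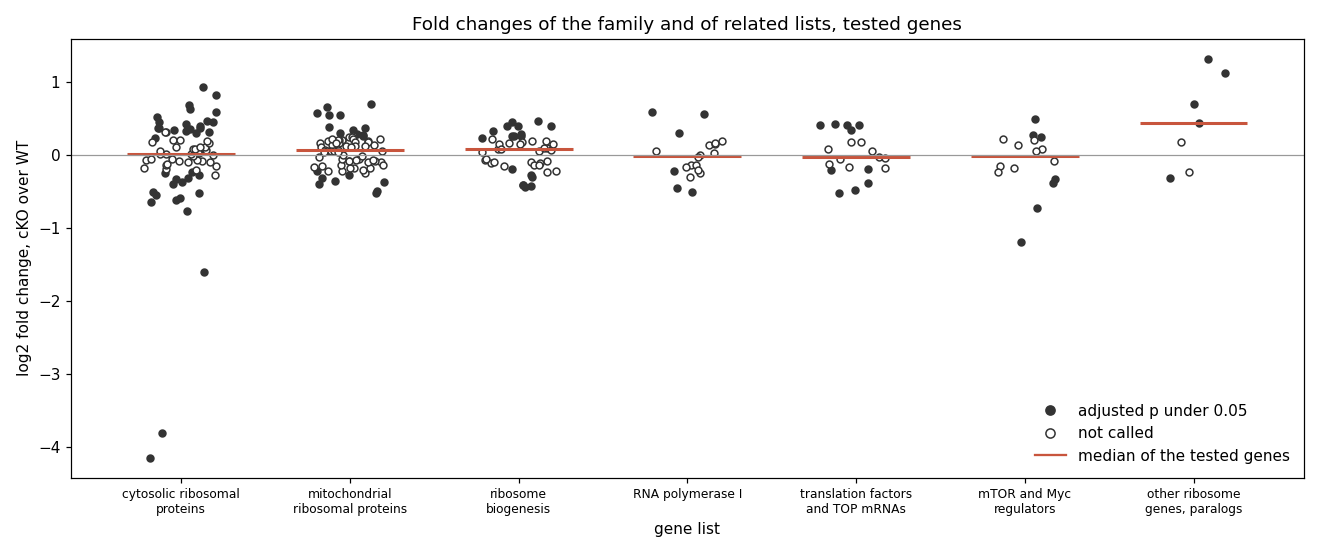
Log2 fold change of each tested gene of the family and of 6 related lists, with filled points for genes at an adjusted p under 0.05 and a line at each median. The medians lie between -0.03 and 0.09 except for the 7 further ribosome genes and paralogs (0.44), and Rpl35a, Rpl29 and Rpl34 are the lowest points of the family.

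Depth was 20036554 to 28095318 reads per cKO library and 10023049 to 11531139 per WT library, so 1 read was worth 0.0356 to 0.0998 CPM. Itgb1, the targeted gene, was at 236 to 275 CPM in cKO and 402 to 448 CPM in WT (log2 fold change -0.72, limma adjusted p = 1.63e-05). Values count the whole gene, so reads outside the deleted part are included. Called shares of the marker lists that follow are to be read against 20.9% higher and 15.9% lower over all features. No list was tested against these shares. Of 9 lens genes tested 0 were higher and 2 lower (22.2%, Mip and Foxe3), and their sums overlapped. All 11 proliferation genes were lower (median -0.53). Endothelial markers (10 of 12 higher, 83.3%) summed to 226 to 268 CPM in cKO and 143 to 176 CPM in WT. Of 12 macrophage markers listed 8 were tested, and all 8 were higher. The 12 summed to 27.3 to 37.4 CPM in cKO and 10.2 to 14.9 CPM in WT. Markers this low can pass the filter of 1 CPM in 3 libraries through the cKO libraries alone. The count of 8 may therefore follow in part from the filter. Pericyte markers had 4 of 6 higher (66.7%) and 1 lower (16.7%), summing to 143 to 167 CPM in cKO and 102 to 130 CPM in WT. Erythroid genes had 2 of 6 tested higher (33.3%) and 1 lower (16.7%). The 8 listed summed to 153 to 216 CPM in cKO and 108 to 133 CPM in WT. Of 9 periocular mesenchyme genes listed 6 were tested, with 4 higher (66.7%) and 1 lower (16.7%). Their sums overlapped, at 201 to 239 CPM in cKO and 210.5 to 254 CPM in WT. Most of that sum was Pdgfra, which was lower, and without it the sums were 33.6 to 51.2 CPM in cKO and 17.2 to 20.7 CPM in WT, with no overlap. Of all these genes only Foxc2 was at 0 in every library. The part of these cells and of cell division in the members' changes was not tested. In pooled tissue, fewer cells of a type and less RNA per cell cannot be told apart.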

How the data were processed

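Poly(A) RNA of pooled lenses was sequenced with a kit that does not mark strand, as single-end reads of 50 bases, per the labels' protocols. For each feature the authors deposited CPM, scaled to sum to 1000000 in a library, and RPKM, the same per kilobase, per the file headers. EdgeR and GRCm38 are named in the submitters' processing notes. No aligner or rule for reads with several matches is stated in the sources used here. CPM values were whole multiples of 1 read for 100% of values within 0.03 reads, so reads were recovered for the alternatives.

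The members and the gene lists were chosen with earlier results of these data known. CPM was tested as log2(CPM + 1) with limma 3.58.1 (trend, robust empirical Bayes, group only) in R 4.3.3 on the 11941 features that reached 1 CPM in 3 or more libraries. This scale understates the change of low genes. Calls were made where the Benjamini-Hochberg adjusted p over these features was under 0.05. The genes named are members, Itgb1 and up to 4 genes of each other list by smallest p. Gm10073, Uimc1, Rps27rt, Rpl36al, Gnb2l1, Foxc2, Pdgfra and copies shown as sequence were named after their values were seen. Some genes are counted in the totals but not reported here by name. RPKM was only described. Correlations of log2 values within groups were 0.992 to 0.996, and replicates differed by more than counting noise (chi-square per degree of freedom 4.25 to 18.7).

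Alternatives were other scalings (RLE, TMM, centring on the family), filters and pseudocount, a block for replicate number, a GC and length correction, edgeR 4.0.16, DESeq2 1.42.0 and limma-voom on recovered reads, thinning to 10023049 reads, removal of features with 10% or more of their 32-base words in other genes, and leaving out each library. Shared windows were found in GENCODE M21 transcripts, which give all coordinates of genes.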

Additional observations from a re-analysis of the deposited data

How the results depend on the processing

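Rpl35a, Rpl29 and Rpl34 were the members below the family range, and 0 lay above it, under every alternative except 1. Removing features with 10% or more of their 32-base words in other genes left 9 tested members, of which 3 were higher and 3 lower, and only Rpl35a lay below the range. Fewer members were then tested by construction. Rpl29 (48.3% of words shared) and Rpl34 (10.57%) were themselves removed, so this alternative does not place them inside or outside the range. Leaving out 1 library gave 17 to 22 members higher and 12 to 18 lower, 3 below the range each time, and 1819 to 2403 genes higher and 1334 to 1934 lower. The log2 ratio of the family's summed CPM ran from -0.06 to 0.01 without 1 library. Of the 38 called members 25 kept their call under every alternative in which they were tested, 13 lost it under at least 1, and 0 changed sign. Rps24 and Rpl17 lost it with the GC and length correction. Among the other scalings, TMM gave 19 members higher and 17 lower and 2413 genes higher and 2363 lower.

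With the replicate number as a block, 25 members were higher and 19 lower, and 2916 genes were higher and 2249 lower. The labels do not say that a number is shared between groups. Deviations of same-numbered libraries correlated at 0.327, -0.034 and 0.147 for numbers 1, 2 and 3, so the numbers were not treated as pairs. Depth limits Rps6, Rpl13, Rpl36, Rps23, Rpl19 and Rpl17, the 6 tested members under 5 CPM on average.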
